A study of Drosophila melanogaster with 2 samples.

Results

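The vacuolar H+-ATPase (V-ATPase) genes of Drosophila melanogaster are described here as the protein-coding genes of the Ensembl annotation whose symbol starts with Vha, which gave 33 genes of 13945 on the 6 chromosome arms. Binding of DREF, a zinc finger factor known for its action at promoters of growth and replication genes, was mapped by ChIP-seq in 2 biological replicates of whole embryos aged 0 to 24 hours. Both replicates came from a strain labelled Dref-GFP, with an insertion that makes DREF fused to eGFP, and the fusion was precipitated through its GFP tag, although another label field names the antibody as Dref. There is 1 group and no other genotype, treatment or stage, so each value is an average over all embryonic tissues and ages, and binding in few cells cannot be told apart from weak binding in many. A gene was called bound when the summit of a peak in the conservative list, which the authors made from both replicates and which holds 5355 peaks, fell no more than 250 bp from a start of one of its transcripts.

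The V-ATPase is a rotary pump that uses ATP to move protons into lysosomes, endosomes and secretory vesicles, and across the outer membrane of some epithelia. Its V1 sector, made of subunits A to H, stands in the cytoplasm and hydrolyses ATP, and its V0 sector, made of subunits a, c, c'', d and e, sits in the membrane and carries the protons. In Drosophila several subunits have a general copy, thought to serve most cells, and paralogs known mainly from restricted tissues, many of them from testis. The division into 15 general and 18 tissue-limited genes was written from general knowledge, since expression was not measured, and is unsure for some genes. With those left out, 14 general and 11 limited genes remained. DREF recognises the palindrome TATCGATA, the DNA replication-related element (DRE).

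Sequences are shown for VhaSFD, the strongest of the bound Vha genes in the conservative list, for 3 other starts with a full or near DRE, and for the 3 genes of subunit A, of which 2 were bound. Each is read 5′ to 3′ on the strand of the gene from the Release 6 assembly (dm6), is cut back where an annotated exon begins, and has in capitals any match to TATCGATA with at most 1 mismatch. The VhaSFD stretch lies at chr2L:16727827-16727901 (minus strand), that of Vha55 at chr3R:12627930-12628030 (minus strand), that of Vha13 at chr3R:19644413-19644523 (minus strand) and that of VhaM9.7-a at chr3L:4262471-4262549 (plus strand). The Vha68-1 stretch lies at chr2L:13004108-13004204 (minus strand), that of Vha68-2 at chr2L:12974190-12974300 (plus strand) and that of Vha68-3 at chr2L:12978676-12978785 (plus strand).
VhaSFD: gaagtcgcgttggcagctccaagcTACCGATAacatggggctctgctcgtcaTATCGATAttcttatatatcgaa
Vha55: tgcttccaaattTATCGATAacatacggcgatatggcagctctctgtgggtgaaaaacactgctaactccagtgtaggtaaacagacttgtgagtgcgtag
Vha13: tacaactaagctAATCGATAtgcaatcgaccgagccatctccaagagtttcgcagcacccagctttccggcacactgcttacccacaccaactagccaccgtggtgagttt
VhaM9.7-a: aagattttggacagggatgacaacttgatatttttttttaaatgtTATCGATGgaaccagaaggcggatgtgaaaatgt
Vha68-1: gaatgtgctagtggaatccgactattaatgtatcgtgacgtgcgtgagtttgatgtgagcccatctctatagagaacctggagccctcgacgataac
Vha68-2: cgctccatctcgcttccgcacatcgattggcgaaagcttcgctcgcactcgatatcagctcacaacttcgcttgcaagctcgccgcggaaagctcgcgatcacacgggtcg
Vha68-3: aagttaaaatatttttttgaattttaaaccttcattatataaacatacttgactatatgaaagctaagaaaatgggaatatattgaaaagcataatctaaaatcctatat
VhaSFD has a full DRE and a near match 5′ of it, Vha55 has a full DRE, and Vha13 and VhaM9.7-a have 1 near match each. None of the 3 subunit A stretches has a match, whether or not the gene was bound.

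DREF was bound at 10 of the 33 Vha genes, or 30.3%, against 30.6% of all protein-coding genes, so the family as a whole stood at the background. Within it the calls were uneven. Of the general copies, 9 of 15 were bound (60%), and of the tissue-limited paralogs 1 of 18 (5.56%). With canonical starts alone the general count was 5 of 15 and the limited count 1 of 18, against 27.9% of all genes, because the summits of Vha68-2, Vha44, Vha100-2 and Vha16-1 lay at alternative starts. The bound limited gene, VhaM9.7-a, has an unsure class and shares its peak with a neighbour. By sector, 7 of 13 V1 genes, 3 of 18 V0 genes and neither of the 2 accessory genes were bound. The general V1 genes were bound in 7 of 9 cases and the general V0 genes in 2 of 5, while the limited genes gave 0 of 4 in V1 and 1 of 13 in V0. No test is given for these counts, because the genes and classes were chosen with earlier results known.

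**Figure D1:**
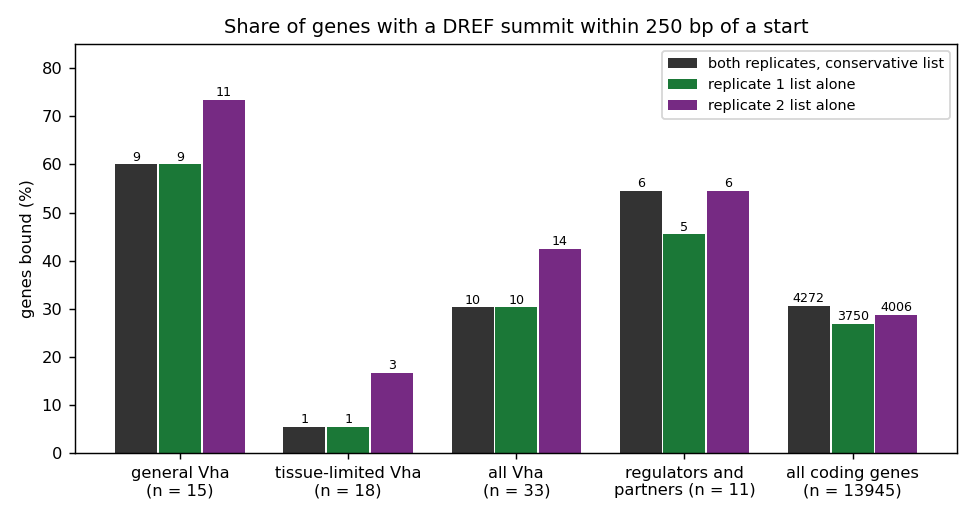
Share of genes with a DREF summit within 250 bp of a start, in percent, for general Vha genes (n = 15), tissue-limited Vha genes (n = 18), all Vha genes (n = 33), regulators and partners of the pump (n = 11) and all protein-coding genes (n = 13945). Bars stand for the conservative list and the list of each replicate, with the number of bound genes above each. General genes stand at 9, 9 and 11 of 15, and limited genes at 1, 1 and 3 of 18.

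In each replicate list more general than limited genes were bound. In the replicate 1 list 10 Vha genes were bound, 9 general and 1 limited, against 26.9% of all genes. In the replicate 2 list 14 were bound, 11 general and 3 limited, against 28.7% of all genes. Each of the 10 genes bound in the conservative list was bound in both replicate lists. That list was made from the same replicates, so this overlap is not separate evidence. The genes added in replicate 2 were VhaPPA1-1 and VhaAC45, both general, and Vha100-1 and VhaAC45RP, both limited.

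By the 250 bp rule V1 was bound more often than V0, and its bound genes ran from the strongest to the weakest of the 10. Limited genes make up 13 of 18 V0 genes but 4 of 13 V1 genes. Among general genes the gap varied with the rule. With an interval over a start, 6 of 9 V1 and 3 of 5 V0 general genes were bound, against 27.8% of all genes. The 500 bp limit added only V0 genes, the general VhaPPA1-1 and VhaM9.7-b and the limited Vha16-5. Signals are the authors' own units of peak strength, not stated to be scaled for depth, and are ranked only within a list. VhaSFD (chr2L:16722883-16727826), which encodes subunit H, a regulator of ATP hydrolysis, had a signal of 1276 in replicate 1, 2001 in replicate 2 and 3253 in the conservative list. It was the strongest of the 10 genes bound in the conservative list, at rank 324 of 5355 peaks, and 90.8% of all bound genes had a lower signal. Its summit lay 20 bp upstream of the start and 0.5 bp from the centre of the full DRE printed above.

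Subunit A, which binds and hydrolyses ATP, has 3 genes along one stretch of arm 2L. Vha68-2 had a signal of 846 in replicate 1, 1241 in replicate 2 and 2079 in the conservative list, with a summit 77 bp upstream of a start. Vha68-1 had 755 in replicate 1, 1301 in replicate 2 and 2037 in the conservative list, with a summit 42 bp upstream. The pair ranked 787 and 818, and their order was opposite in replicate 2. Vha68-3, a limited paralog that begins 178 bp beyond the end of Vha68-2, had no peak of any list of both replicates within 250 bp, and the nearest conservative summit was 4541 bp away, the one at Vha68-2. The Vha68-2 summit lies at an upstream alternative start, 377 bp from the canonical one.

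The remaining bound V1 genes spanned most of the range of signal. Vha13, for subunit G of the peripheral stalk, had 580 in replicate 1, 1069 in replicate 2 and 1642 in the conservative list, 82 bp upstream of its start. Vha36-1, for subunit D of the central stalk, had 615 in replicate 1, 862 in replicate 2 and 1468 in the conservative list. That summit lay 48 bp upstream of Vha36-1 and 24 bp from the start of CG8187, which is read the other way. Vha26, for subunit E of the peripheral stalk, had 426 in replicate 1, 717 in replicate 2 and 1133 in the conservative list, 60 bp upstream. These 3 genes all lay above the median signal of bound genes. Vha44, for subunit C, which joins V1 to V0, was far lower, with 76.6 in replicate 1, 103 in replicate 2 and 186 in the conservative list. Only 21.3% of bound genes had a lower signal than Vha44. The Vha44 summit lay 62 bp upstream of an alternative start and 2717 bp from the canonical one. The paralogs of subunit D, Vha36-2 and Vha36-3, were not bound.

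Few V0 genes were bound, and these were mostly weak. Vha16-1, the general copy of subunit c, which forms the proton-carrying ring, had 195 in replicate 1, 296 in replicate 2 and 495 in the conservative list, 92 bp upstream of an alternative start and 798 bp from the canonical one. Vha100-2, the general copy of subunit a, which carries the proton path beside the ring, had 105 in replicate 1, 96.2 in replicate 2 and 193 in the conservative list. It was the only 1 of the 10 bound genes with the higher signal value in replicate 1, but the 2 lists are not on a shared scale. By percentile within each list, VhaSFD, Vha68-2 and Vha36-1 also stood higher in replicate 1. The Vha100-2 summit lay 31 bp from a start in replicate 1 and 103 bp in replicate 2. The other 4 genes of subunit c and the other 4 of subunit a were not bound. Vha100-4, a limited gene, begins 517 bp beyond the end of Vha100-2, and its own ranked peak had a signal of 32.5. The Vha100-2 summit lay 51 bp upstream of an alternative start and 2292 bp from the canonical one.

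Subunit e, a small membrane protein, was the only subunit with a bound limited gene. At subunits F, c'', d and Ac45, neither the general nor the limited gene was bound in the conservative list. VhaM9.7-a (chr3L:4262705-4263464) had 493 in replicate 1, 775 in replicate 2 and 1264 in the conservative list. That summit lay 211 bp upstream of VhaM9.7-a and 24 bp from the start of CG11586, which is read the other way. A second, weaker summit of the same interval, with a signal of 209, lay 3 bp from the VhaM9.7-a start. The replicate 2 list had a matching summit of signal 197, 16 bp from the start, but the replicate 1 list had none. In the ranked list of replicate 1 it had a signal of 83.6 and a score of only 7. The call at a limit of 100 bp rests on this second summit. At VhaM9.7-b, classed as general, the nearest summit was 419 bp away with a signal of 130.3 and lay at the start of COX8, a subunit of cytochrome c oxidase.

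**Figure D2:**
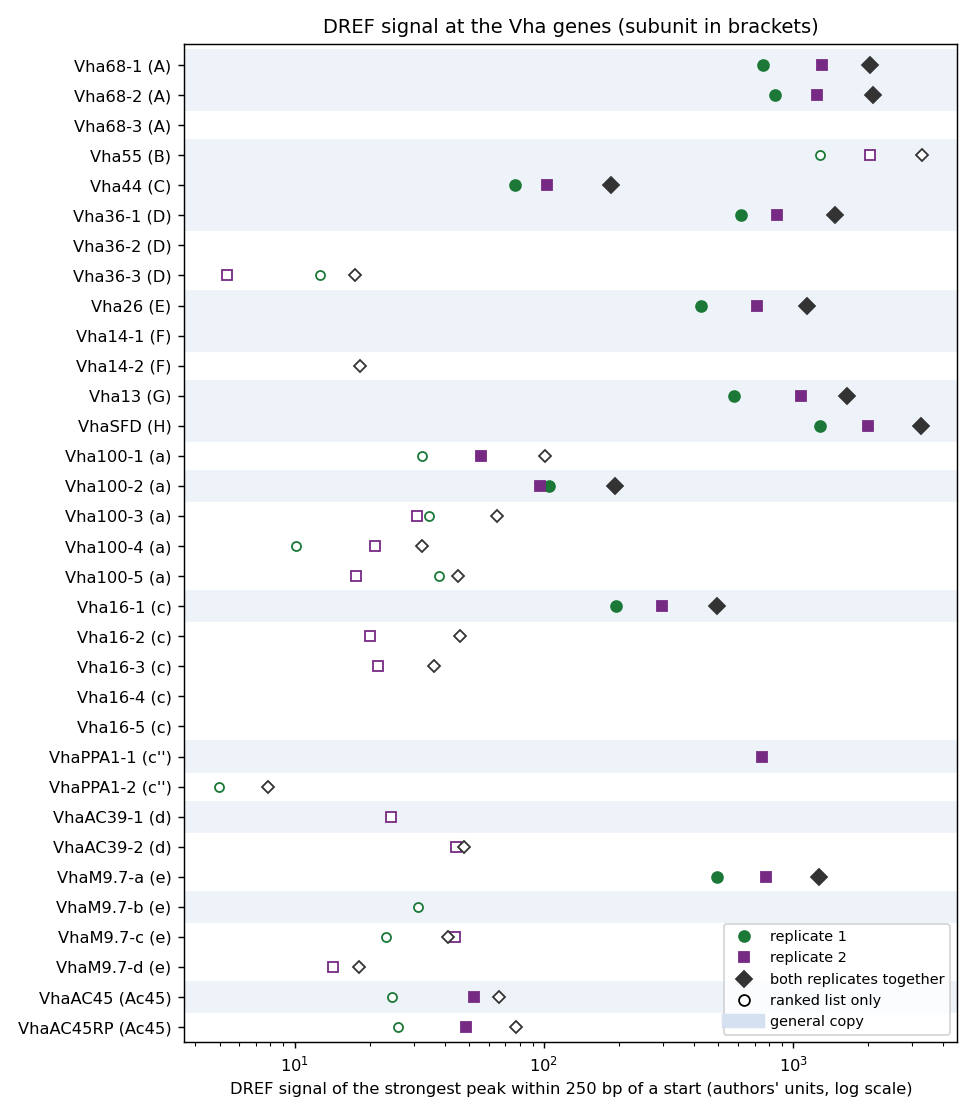
DREF signal of the strongest peak within 250 bp of a start (authors' units, log scale) for each of the 33 Vha genes, with the subunit in brackets and general copies shaded. Circles are replicate 1, squares replicate 2 and diamonds both replicates together. Filled circles and squares are peaks of a replicate's thresholded list, and filled diamonds peaks of the conservative list. Open symbols are peaks of the matching ranked list, drawn where the thresholded or conservative list has none. The open diamonds of Vha100-1 and VhaAC45RP are peaks that are also in the other thresholded list. The 10 genes with a filled diamond run from 186 at Vha44 to 3253 at VhaSFD, and Vha55 has open symbols up to 3293.

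Set beside all bound genes, the Vha genes covered most of the range. The median signal of the 10 bound Vha genes was 1366, and that of all 4272 bound genes was 908. From VhaSFD down, the share of bound genes with a lower signal was 77.8% for Vha68-2, 77.0% for Vha68-1, 69.6% for Vha13, 66.0% for Vha36-1, 60.8% for VhaM9.7-a, 56.8% for Vha26, 37.5% for Vha16-1 and 22.0% for Vha100-2. Every conservative summit that made a Vha gene bound lay upstream of the start. At 4 of the 10 genes the summit also lay within 250 bp of another coding gene's start, or 40%, against 40.3% of all bound genes. These neighbours were Hmgs at Vha44, CG8187 at Vha36-1, noi at Vha26 and CG11586 at VhaM9.7-a.

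**Figure D3:**
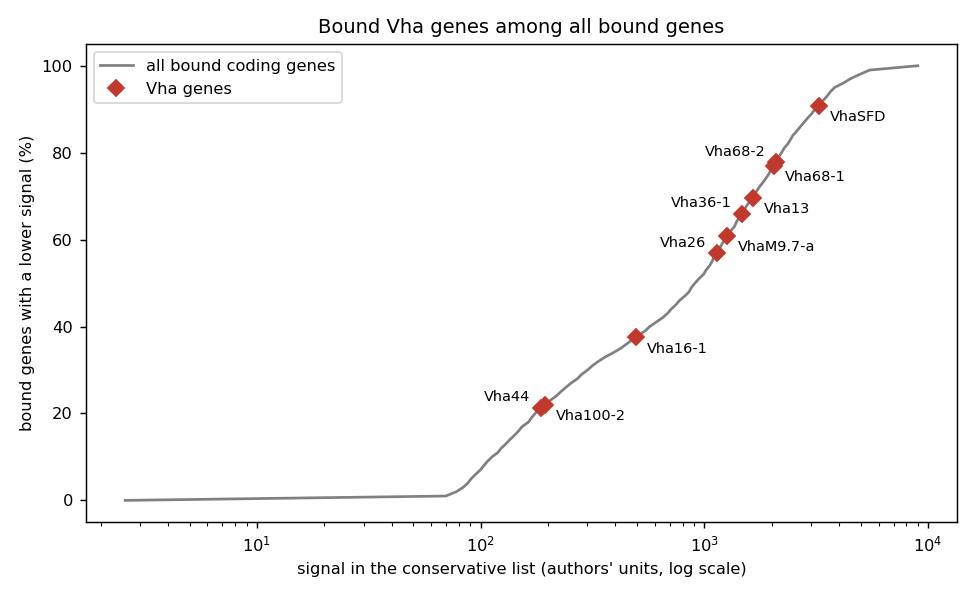
Percent of all bound protein-coding genes with a lower signal (vertical axis) against the signal in the conservative list (authors' units, log scale). The line is all 4272 bound genes and the diamonds are the 10 bound Vha genes, which lie from 21.3% at Vha44 to 90.8% at VhaSFD.

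Of the 6 general genes that were not bound, 2 had a strong peak close by. Vha55 (chr3R:12623762-12627829), for subunit B, the partner of A in the catalytic head, had a peak of signal 3293 in the ranked list of both replicates, at rank 324 of 126700, with 1283 and 2028 in the ranked lists of replicates 1 and 2. In the ranked list of both replicates VhaSFD stood below it, at rank 339. Its summit lay 156 bp upstream of Vha55 and 46 bp from Snx3, a sorting nexin gene read the other way, and the interval holds the full DRE printed above. This peak has the top score of 1000 but is in none of the thresholded lists. It is 1 of 235 ranked peaks of score 830 or more that are not in the conservative list, which lay at the starts of 88 genes with no other Vha gene among them. Why these peaks were left out is not given in the files. With them added back, a setting chosen after this peak was seen, 11 Vha genes were bound, against 31.2% of all genes.

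VhaPPA1-1, for subunit c'' of the ring, had a conservative peak of signal 1223 whose interval covered its start but whose summit lay 272 bp upstream, just outside the limit. In replicate 1 the summit lay 286 bp upstream with a signal of 492, and in replicate 2 there was 1 summit of 748 at 273 bp and 1 of 750.2 at 61 bp. The others were far weaker. VhaAC45, an accessory subunit, had 66.3 in the ranked list of both replicates and 52.2 in the replicate 2 list. Vha14-1, for subunit F, and VhaAC39-1, for subunit d, had no peak of the ranked list of both replicates within 250 bp, and their nearest conservative summits lay 773 and 12108 bp away.

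**Figure D4:**
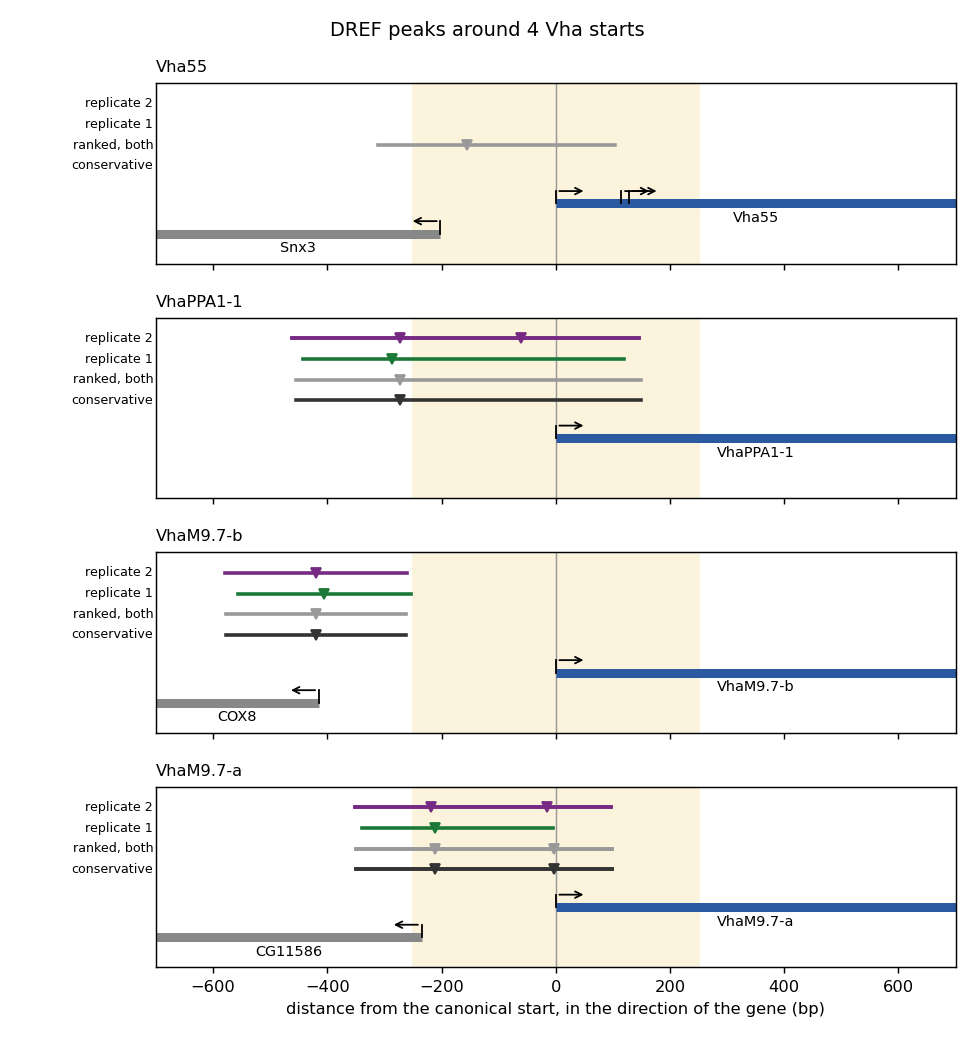
Peaks around the starts of Vha55, VhaPPA1-1, VhaM9.7-b and VhaM9.7-a, by distance from the canonical start in the direction of the gene (bp). Lines are peak intervals and triangles summits in the conservative list, the ranked list of both replicates (score of 830 or more) and each replicate's thresholded list; the shaded band is 250 bp either side, blue bars are the Vha genes, grey bars neighbouring genes and arrows starts. Vha55 has a peak in the ranked list only, and the VhaPPA1-1 summit falls 272 bp upstream.

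The unbound tissue-limited genes had at most weak peaks. Of 17, 13 had a peak of the ranked list of both replicates within 250 bp, with signals from 7.79 at VhaPPA1-2 to 101.3 at Vha100-1 and a median of 41.2, and every one of these had a q-value above 0.05. Among all 9673 unbound genes, 4558 had such a peak, with a median of 36.8. Vha100-1, known from neurons, had 55.9 in the replicate 2 list and 101.3 in the other thresholded list. These summits lay 167 and 172 bp from a Vha100-1 start but nearer to the start of dgt6, at 54 and 49 bp. VhaAC45RP had 48.5 in the replicate 2 list and 77.5 in the other thresholded list. No limited gene of subunits A, D or F was in a thresholded list at 250 bp. The ranked signals of Vha36-3 and Vha14-2, for subunits D and F, were 17.4 and 18.2. Of the subunit a genes, Vha100-3 had 65.1 and Vha100-5 had 45.3. Of the subunit c genes, Vha16-2 had 46.2 and Vha16-3 had 36.1, and of the subunit e genes VhaM9.7-c had 41.2 and VhaM9.7-d had 18.2. Vha68-3, Vha36-2, Vha16-4 and Vha16-5 had no peak of that list within 250 bp. Vha16-5, for subunit c, had a conservative summit of signal 1190 at 274 bp, nearest to the start of CG12299. VhaAC39-2, for subunit d, lay 1392 bp from a summit of signal 5652 that was nearest to unk.

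Counted over any peak of the ranked list of both replicates, most of which failed the authors' threshold, 25 Vha genes had one within 250 bp, against 63.3% of all genes. With the summit limit at 100 bp, 10 Vha genes were bound against 25.6% of all genes, and at 500 bp 13 were bound against 34.5%. The other thresholded list gave 12 Vha genes against 31.4%. Peaks with a q-value of 0.05 or less gave 10 against 28.0%, and peaks at or above the median signal gave 8 against 21.6%. Canonical starts alone gave 6 against 27.9%. An interval over a start in place of a summit gave 10 against 27.8%, with Vha44 lost and VhaPPA1-1 gained. Vha44 was also lost with canonical starts alone and with peaks at or above the median signal.

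The full DRE was found at few of these summits. Motifs were searched as letters on both strands within 100 bp of the summit. TATCGATA lay at 1 of 10 bound Vha genes, VhaSFD, and at 26.4% of the 3595 summits at starts. Its core ATCGAT lay at 6 of the 10 and at 52.7% of summits. CGATA, which overlaps both and is also known as a site of the boundary factor BEAF-32, lay at 9 and at 74.8%. TATCGATA with 1 mismatch allowed lay at 4, namely VhaSFD, Vha13, Vha36-1 and VhaM9.7-a, and at 56.5% of summits. CAGCTG lay at 3 and at 20.4%, and TATAAA at 2 and at 24.9%.

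Vha44 differed from the other bound Vha genes in its motifs. CACGTG lay at 1 of the 10 genes, Vha44, 17.5 bp from the summit, and at 3.67% of summits. It was part of the longer palindrome TCACGTGA, which lay at 0.167% of summits, or 6 of 3595. That longer form is known as the kind of site bound by Mitf, a transcription factor that acts on V-ATPase and lysosomal genes. A match of letters is not a measured site, and the Vha44 peak also lies 61 bp from the start of Hmgs.

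Windows from 250 bp before to 50 bp after the canonical start gave the motifs without regard to binding. These windows leave out the summits of 4 bound general genes. Those of Vha68-2, Vha44, Vha100-2 and Vha16-1 lay 377, 2717, 2292 and 798 bp from the canonical start. The CACGTG at the Vha44 summit and the ATCGAT at the Vha68-2 summit are therefore not counted below. TATCGATA lay in 2 of 15 general genes, Vha55 and VhaSFD, in 0 of 18 limited genes and in 8.94% of all genes. ATCGAT lay in 5 general and 4 limited genes, and in 22.7% of all genes. CACGTG lay in 0 general genes, in 2 limited genes, VhaM9.7-d and VhaAC45RP, and in 4.26% of all genes. TATAAA lay in 6 general and 10 limited genes, and in 45.3% of all genes. Median GC content of these windows was 38.7% in general genes, 33.3% in limited genes and 38.0% in all genes.

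The classes also differed in gene structure. Of the limited genes 7 of 18 had a single exon (38.9%), of the general genes 2 of 15 (13.3%), and of all genes 15.2%. Several starts, each of which the binding rule accepts, were annotated for 5 of 15 general genes (33.3%), 3 of 18 limited genes (16.7%), 26.5% of all genes and 36.1% of all bound genes. Median gene length was 3338 bp for general, 1336 bp for limited and 2166 bp for all genes. Among all bound genes 7.51% had a single exon and the median length was 2744 bp. Whether structure, GC content or position had a part in the binding calls was not tested.

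Regulators and partners of the pump were bound in 6 of 11 cases, against 30.6% of all genes. Lamtor1 and Lamtor3, of the Ragulator complex that ties the pump to nutrient sensing, had signals of 2448 and 1232. The Rag GTPase genes RagC-D and RagA-B had 1923 and 553. Rbcn-3A and Rbcn-3B, known for assembly of the pump, had 831 and 709. In the replicate lists the Rbcn-3A interval showed only a summit 240 and 235 bp from that one, at Spx, with 510 in replicate 1 and 910 in replicate 2. Mitf, mtd, Lamtor2, Lamtor4 and Lamtor5 were not bound, and of these Mitf had a peak of signal 61.9 in the replicate 2 list. ATP6AP2, an accessory subunit once named VhaM8.9 and so outside the rule, had 1414 in replicate 1, 2246 in replicate 2 and 3646 in the conservative list, above every Vha gene.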

How the data were processed

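The authors deposited dm6 peak lists. Per the file notes these are a ranked and a thresholded list for each replicate, and ranked, thresholded and conservative thresholded lists made from both replicates. Each deposited peak carries a score, read here as a scaled irreproducible discovery rate and never below 830 in the thresholded lists. The deposited signal is the authors' own measure of peak strength, and no source used here describes it as scaled for depth. A deposited −log10 q-value per peak tops out at 3.78. The sources used here name neither aligner nor peak caller. The labels list a possible control experiment, which was not analysed here. Read depth is unknown, so no counting interval is given.

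Gene models came from Ensembl release 115 (BDGP6.54) and sequence from the Release 6 assembly, on 6 chromosome arms. Distances, overlaps and exact motif matches on both strands were computed in Python 3.11.15 with pandas 2.3.3 and tested on simulated data. The members, their classes and the list of regulators were chosen with earlier results of these data known, and the classes rest on general knowledge, since expression was not measured. Every member was named, in the order of its role. With 1 group there is no contrast between conditions, so counts are set beside the share of all protein-coding genes and no p-value is given.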

Additional observations from a re-analysis of the deposited data

Results flagged for a closer look

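Several genes without a conservative summit within 250 bp of a start had a peak in another deposited list that reached the score of the thresholded lists. Vha55 had a signal of 3293 in the ranked list of both replicates. VhaPPA1-1 had a signal of 750.2 in the replicate 2 list, at a summit 61 bp upstream of its start. Vha100-1 had a signal of 101.3 in the other thresholded list and 55.9 in the replicate 2 list, at summits nearer to the start of dgt6. VhaAC45RP had a signal of 77.5 in the other thresholded list and 48.5 in the replicate 2 list. VhaAC45 had a signal of 52.2 in the replicate 2 list. No control values were analysed for these positions, and what set these peaks apart from the conservative list was not tested.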

How the results depend on the processing

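Of the 33 genes, 22 had the same call under all 10 settings and 11 changed under at least 1. With canonical starts only, 6 Vha genes and 5 of 15 general copies were bound, against 27.9% of all genes. The count of tissue-limited genes bound was 2 of 18 at 500 bp, against 34.5% of all genes, and 3 in the other thresholded list, against 31.4%. It was 1 in the replicate 1 list and 3 in the replicate 2 list, against 26.9% and 28.7% of all genes. With genes of unsure class left out, 0 of 11 limited and 8 of 14 general genes were bound, against 30.6% of all genes. Split by gene number in place of class, 4 of 5 subunits with 1 gene were bound (80%). Of the 28 genes of the other subunits, 6 were bound (21.4%), against 30.6% of all genes. Bound genes with a DRE numbered 2 with the ranked peaks added back, an alternative chosen after seeing the data, and 4 with 1 mismatch allowed. The median signal of bound Vha genes was 1223 at 500 bp, 1198 in the other thresholded list, 537 to 734 in the lists of single replicates, and 1555 both for peaks at or above the median signal and for canonical starts. Signals of different lists are not on a shared scale. The causes were not tested. No paired analysis was possible because the series holds 1 group. Depth is unknown, so a missing peak cannot be read as a lack of binding.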
